A study of Bos taurus with 12 samples.

Results

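The 4 miRNAs described here, bta-miR-142-5p, bta-miR-142-3p, bta-miR-150 and bta-miR-223, are known for their restriction to blood leukocytes, and they were followed through granulosa cells of the bovine ovarian follicle. They were taken by name from 755 mature miRNA names, and each had a single precursor entry in the count lists. The 12 small RNA libraries came from Simmental heifers whose cycles had been synchronized with the prostaglandin analogue cloprostenol and the GnRH analogue buserelin, and they form 4 groups of 3 biological replicates: subordinate follicles (SF) at day 3, dominant follicles (DF) at day 3, SF at day 7 and DF at day 7 of the cycle. Follicles were assigned to SF or DF by diameter, with higher limits at day 7 than at day 3 for both classes. The heifers of day 3 and day 7 were different animals. Granulosa cells were the washed pellet of follicular fluid that had been pooled by follicle size class, so a library can hold cells of several follicles and any blood cell that the fluid held. The paper lists only 3 follicles as DF at day 7, for the 3 replicates of that group, and more follicles in every other group. How many follicles each library held is not given, so spreads between replicates may not be alike in kind across the groups. The labels give granulosa cells as the cell type of every library.

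A miRNA is a short RNA cut from a hairpin precursor that pairs with messenger RNAs and lowers their translation and stability. The miR-142 hairpin yields a 5p and a 3p strand and is active in nearly all blood cell lineages while being silent in most other cells. The miRNA miR-150 is abundant in mature B and T lymphocytes, and miR-223 marks the myeloid lineage, above all neutrophils and monocytes. In the ovary, leukocytes sit mainly in the theca and stroma around a follicle, they enter the follicle wall when it regresses or ovulates, and the granulosa layer of a growing follicle holds few of them. In the RefSeq annotation of a later cattle assembly the miR-142 gene lies within the span of TSPOAP1 and the miR-223 gene within that of VSIG4, a macrophage receptor gene.

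The reads on known miRNAs ranged from 160418 to 405129 per library, with 1 entry per mature name. A library with 0 reads of a miRNA can hold up to 7.41 to 18.7 RPM (reads per 1000000 miRNA reads) of it, the share of 3 reads, and this limit covers counting error only. Values below are normalized counts, which are raw counts divided by a median-of-ratios size factor taken over all 12 libraries, unless raw reads are named. In bulk samples, a change in the number of leukocytes and a change in the RNA of each leukocyte cannot be told apart. Neither can be told apart from a change in the granulosa cells themselves. Detection in a group required a read in 2 or more of its replicates.

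Of the 4 miRNAs, bta-miR-142-5p was the most abundant in every group. In replicates 1, 2 and 3 it had 199, 92.5 and 122 normalized counts in SF at day 3 and 131, 104 and 95.2 in DF at day 3. At day 7 the same order of replicates gave 155, 612 and 175 in SF and 2703, 7019 and 659 in DF. The 3 DF libraries of day 7 thus lay above all 9 others, but the lowest of them, replicate 3, was close to the highest SF library of that day, replicate 2. The group means were 138 ± 55.2 (SD, n = 3), 110 ± 18.6, 314 ± 258 and 3460 ± 3247, respectively, and the last placed bta-miR-142-5p 19th among the 315 miRNAs detected in DF at day 7, against 98th of 318 in DF at day 3. In RPM, the means in DF were 435 ± 45.4 at day 3 and 12614 ± 11948 at day 7.

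The lymphocyte miRNA bta-miR-150 followed the same pattern at a lower level. It had 25.6, 16.6 and 43.8 normalized counts in SF and 35.4, 13.8 and 35.1 in DF at day 3. At day 7 it had 32.9, 108 and 35.0 in SF and 477, 1822 and 138 in DF. As for bta-miR-142-5p, replicate 2 was the highest library of each class at day 7 and DF replicate 3 lay just above it in SF. Its means at day 3 were 28.7 ± 13.9 (SD, n = 3) for SF and 28.1 ± 12.4 for DF, and those at day 7 were 58.6 ± 42.7 and 812 ± 890.

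The myeloid miRNA bta-miR-223 was near the limit of the depth everywhere. Each SF library of day 3 had 1 raw read, the DF libraries of day 3 had 0, 1 and 1, the SF libraries of day 7 had 1, 2 and 4, and the DF libraries of day 7 had 6, 5 and 5. After normalization its means were 1.18 ± 0.24 (SD, n = 3) and 0.54 ± 0.51 in SF and DF at day 3, and 2.33 ± 1.56 and 6.13 ± 2.10 in SF and DF at day 7. All 3 DF libraries of day 7 were above every other library, with much less spread than for bta-miR-142-5p and bta-miR-150.

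The 3p strand of miR-142 was hardly seen. It had no read in any of the 6 libraries of day 3, 0, 1 and 0 raw reads in SF and 5, 4 and 1 in DF at day 7. Only DF at day 7 met the detection rule, and on the normalized scale DF replicate 3 with 0.92 was below SF replicate 2 with 1.04.

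**Figure D1:**
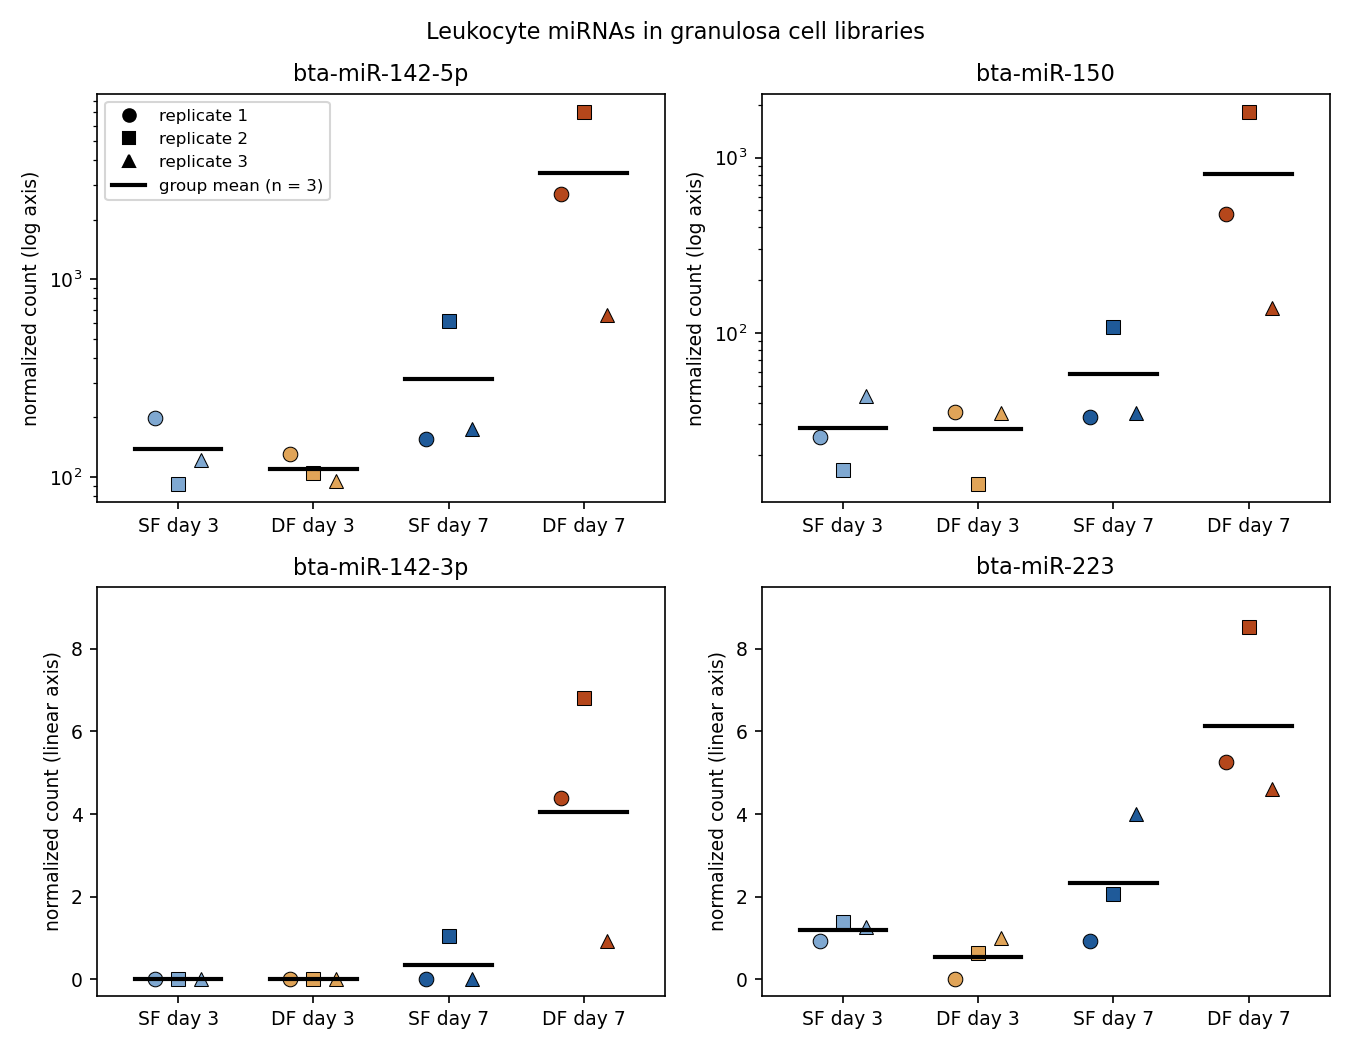
Normalized counts of the 4 miRNAs (y axis, logarithmic in the upper panels and linear in the lower ones) in the 12 libraries by group (x axis), with a symbol for each replicate and a line at the group mean. The DF libraries of day 7 hold the highest values of bta-miR-142-5p, bta-miR-150 and bta-miR-223, from 659 to 7019 for the first and from 138 to 1822 for the next, while bta-miR-142-3p and bta-miR-223 stay under 9.

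The first comparison asks whether miRNAs differ between SF and DF when follicles are recruited, at day 3. None of the 3 leukocyte miRNAs tested was differentially expressed, where 5.67% of the 335 miRNAs tested were. To be called differentially expressed, a miRNA needed a log2 fold change of 1 or more in size, p no higher than 0.05 and a false discovery rate no higher than 10% in edgeR's quasi-likelihood test. With SF set against DF, the log2 fold change was 0.28 (standard error, SE, 0.22, 95% interval -0.17 to 0.73) for bta-miR-142-5p and 0.01 (SE 0.35, 95% interval -0.70 to 0.73) for bta-miR-150. The intervals of both lie within a log2 difference of 1 either way, whereas that of bta-miR-223, from -1.64 to 3.57, does not. The strand bta-miR-142-3p had no read and was not tested.

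At day 7, when a follicle can reach dominance, bta-miR-142-5p, bta-miR-150 and bta-miR-142-3p were lower in SF than in DF. For bta-miR-142-5p SF stood to DF at a log2 fold change of -3.40 (SE 0.83, adjusted p = 0.0104, edgeR), and for bta-miR-150 it was -3.74 (SE 0.88, adjusted p = 0.00903, edgeR). The fold change of bta-miR-223 went the same way but missed the threshold, at -1.24 (SE 0.68, adjusted p = 0.193, edgeR), although its SF and DF libraries did not overlap. Lower counts in SF were called for 3 of the 4, and for 18.3% of the 350 miRNAs tested, with a median log2 fold change of -3.21 over the 4 and -0.05 over all tested. Of the 3, bta-miR-142-3p was tested only because DF met the detection rule, so its direction was set beforehand. It also enters the median over the 4. SF and DF libraries were separated, with SF lower, for bta-miR-142-5p, bta-miR-150 and bta-miR-223, as for 23.1% of all miRNAs tested. The size of the difference rested much on DF replicate 2: without it the log2 fold changes were -2.33 for bta-miR-142-5p and -2.31 for bta-miR-150, and without SF replicate 2 they were -4.35 and -4.54. Both remained differentially expressed whichever single library was omitted.

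The call of bta-miR-142-3p at day 7 was weak. Its log2 fold change of -3.01 (SE 1.20, adjusted p = 0.0831, edgeR) is a fitted value that depends on the prior count, and it was lost when SF replicate 1 or 3 or DF replicate 1 or 2 was left out, with adjusted p between 0.151 and 0.192 (edgeR). In summed reads, 10 in DF against 1 in SF gave a ratio of 10.9 after scaling by the size factors, with an exact 95% counting interval from 1.55 to 472. This interval leaves out variation between replicates.

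The DF groups of the 2 days, compared to follow the dominant follicle through the luteal phase, differed for bta-miR-142-5p, bta-miR-150 and bta-miR-223, each with more counts at day 7. The strand bta-miR-142-3p was also called. It was tested only because DF at day 7 met the detection rule, so its direction was set beforehand. Counts were called higher at day 7 for 24.4% of the 360 miRNAs tested. The median log2 fold change was 4.92 over the 4, bta-miR-142-3p included, and 0.05 over all tested. The log2 fold changes were 4.97 (SE 0.64, adjusted p = 2.34e-05, edgeR) for bta-miR-142-5p and 4.87 (SE 0.76, adjusted p = 0.000127, edgeR) for bta-miR-150. For bta-miR-223 the log2 fold change was 3.23 (SE 0.89, adjusted p = 0.0100, edgeR). The libraries of the 2 days did not overlap for bta-miR-142-5p, bta-miR-150 and bta-miR-223, which was so, with day 7 higher, for 25% of all miRNAs tested. For bta-miR-142-3p they were set apart by only 1 raw read in DF replicate 3 of day 7, against none at day 3. Each call held when any 1 library was left out. Without DF replicate 2 of day 7 the log2 fold change of bta-miR-142-5p was 3.90 and that of bta-miR-150 was 3.45. Since the DF libraries of day 7 enter both this comparison and the one before it, their values are not independent.

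For the low-count miRNAs, reads were also summed over the replicates, with intervals that cover counting error only. Variation between replicates is left out, so these intervals can be too narrow for a difference between groups. The 16 raw reads of bta-miR-223 in DF at day 7 against 2 at day 3 gave a scaled ratio of 11.1, with an exact 95% counting interval from 2.60 to 99.3. For bta-miR-142-3p, 10 reads at day 7 stood against none at day 3. Taking 3 reads over the group as the limit for day 3, the scaled ratio was 4.62. This ratio leaves out the counting error of the 10 reads, so it is no strict lower bound. The fitted log2 fold change of bta-miR-142-3p was 5.08 (adjusted p = 0.0150, edgeR) and is no bound either.

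Between the days in SF, none of the 3 miRNAs tested was differentially expressed, as was the case for all but 0.593% of the 337 miRNAs tested. The log2 fold change of day 7 against day 3 was 1.22 (SE 0.45, 95% interval 0.25 to 2.18) for bta-miR-142-5p, 1.06 (SE 0.48, 95% interval 0.02 to 2.10) for bta-miR-150 and 0.94 (SE 0.92, 95% interval -1.04 to 2.92) for bta-miR-223. Before adjustment the p values of bta-miR-142-5p and bta-miR-150 were 0.0172 and 0.0465 in edgeR, and after it they were 0.263 and 0.447. These values rested on 1 library, SF replicate 2 of day 7, without which the log2 fold changes were 0.24 for bta-miR-142-5p and 0.23 for bta-miR-150. Leaving out SF replicate 1 of day 7 instead made both pass the thresholds, at 1.52 (adjusted p = 0.00978, edgeR) and 1.33 (adjusted p = 0.0624, edgeR).

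The interaction of follicle and day, fitted over all 12 libraries, tests whether SF stood to DF at day 7 as it did at day 3. It passed the thresholds for bta-miR-142-5p, with a log2 value of -3.79 (SE 0.89, adjusted p = 0.00412, edgeR), and for bta-miR-150, with -3.84 (SE 1.04, adjusted p = 0.0103, edgeR). The sign says that SF was lower relative to DF at day 7 than at day 3, where it was not below DF in the mean, and 14.3% of the 378 miRNAs tested were called in that direction. For bta-miR-223 the value was -2.31 (SE 1.30, adjusted p = 0.231, edgeR). No interaction could be estimated for bta-miR-142-3p, which had no read in either group of day 3. Without DF replicate 2 of day 7 the values were -2.72 for bta-miR-142-5p and -2.42 for bta-miR-150, both still past the thresholds.

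**Figure D2:**
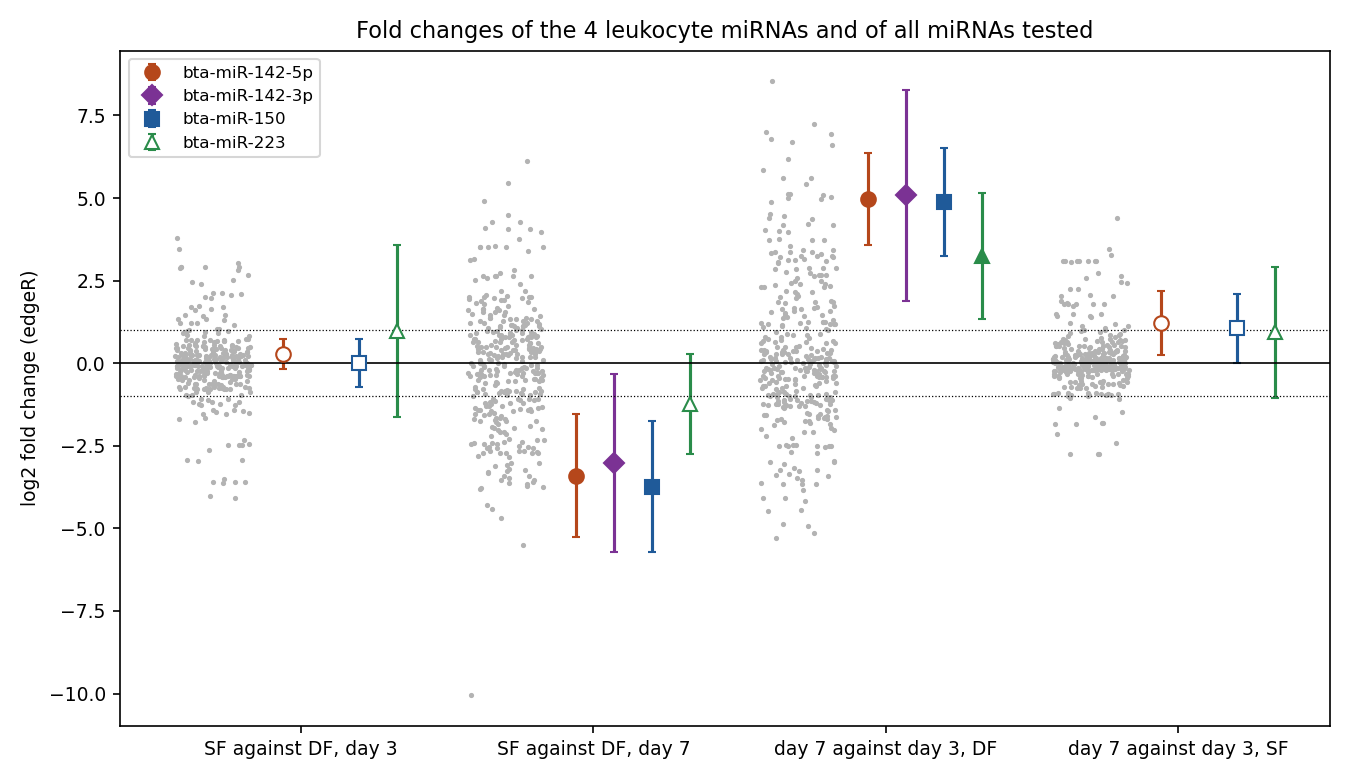
Log2 fold changes (y axis) of the 4 leukocyte miRNAs in the 4 comparisons between groups (x axis), with 95% intervals, beside all miRNAs tested as grey dots. Filled symbols were differentially expressed, open ones were not, and dotted lines mark a log2 fold change of 1 in either direction. All 4 are filled in the comparison of day 7 with day 3 in DF, with values from 3.23 to 5.08. The highest of these, bta-miR-142-3p, was tested only through its reads in DF at day 7.

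Ordered by mean, the groups ran DF at day 7, SF at day 7, SF at day 3 and DF at day 3 for bta-miR-142-5p, bta-miR-150 and bta-miR-223. Between neighbours in this order, the step from DF to SF at day 7 passed the test for bta-miR-142-5p and bta-miR-150. No other step between neighbours passed it for any of these miRNAs.

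Within a library, reads of bta-miR-150 were fewer than those of bta-miR-142-5p in all 12 cases. Raw reads of bta-miR-150 per read of bta-miR-142-5p were 0.177, 0.260 and 0.210 in the DF libraries of day 7 and 0.212, 0.176 and 0.200 in the SF libraries of day 7. At day 3, where fewer than 50 reads of bta-miR-150 were counted per library, the ratio ran from 0.128 to 0.361 in SF and from 0.133 to 0.368 in DF. The ranges of day 3 were wider and took in those of day 7, and no difference between them was tested.

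The strands of miR-142 were far apart in number. Over the 12 libraries 9659 reads were counted on the 5p strand and 11 on the 3p strand, a ratio of 878, so that the 3p strand made up 0.114% of the reads of the hairpin (exact 95% binomial interval 0.0568% to 0.203%, for counting error only). Whether the sequence listed for the 3p strand matches the strand made in these cells was not checked, so the share is that of reads counted on the listed sequences. In DF at day 7 alone the ratio was 791, from 7911 and 10 reads. All 3p reads came from the 4 libraries with the most 5p reads, which were the 3 DF libraries and SF replicate 2 of day 7. Levels of different miRNAs can be set side by side only roughly, since adapters join some miRNAs more readily than others and a read is counted only where it fits the listed mature sequence.

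Among the replicates of DF at day 7, bta-miR-142-5p and bta-miR-150 varied more than most miRNAs. The highest library had 10.7 times the normalized count of the lowest for bta-miR-142-5p, and 13.2 times for bta-miR-150. The median of this ratio was 1.55 over 184 miRNAs with a mean of at least 10 raw reads, and only 3 of them had a larger one than bta-miR-142-5p. In SF at day 7 the ratios were 3.94 and 3.28 against a median of 1.50. At day 3 they were 2.15 and 2.65 in SF and 1.38 and 2.57 in DF, against a median of 1.33 in each.

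Normalized counts in DF replicate 3 of day 7 were 0.136 times the mean of replicates 1 and 2 for bta-miR-142-5p, 0.120 times for bta-miR-150 and 0.165 times for bta-miR-142-3p. Of the other miRNAs examined with reads in all 3 libraries, bta-miR-146a and bta-miR-146b, brakes on inflammatory signalling that are induced in activated leukocytes, came nearest, with 0.255 and 0.220 times. The erythrocyte miRNAs bta-miR-451 and bta-miR-486 were at 0.481 and 0.442 times, and bta-miR-144 had 2, 0 and 0 raw reads in replicates 1, 2 and 3. In contrast, the ratio was 1.30 for bta-miR-21-5p and 0.669 for both bta-miR-155 and bta-miR-223. For bta-miR-342, bta-miR-181a, bta-miR-24-3p and bta-miR-29a, also abundant in leukocytes, it was 0.834, 0.860, 0.885 and 1.21. The smooth muscle, fibroblast and theca miRNAs ran from 1.09 for bta-miR-199a-3p to 1.72 for bta-miR-143. Of the granulosa miRNAs, bta-miR-378 was at 0.590, while bta-miR-132, bta-miR-224, bta-miR-202 and bta-miR-212 were at 1.39 to 1.75.

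**Figure D3:**
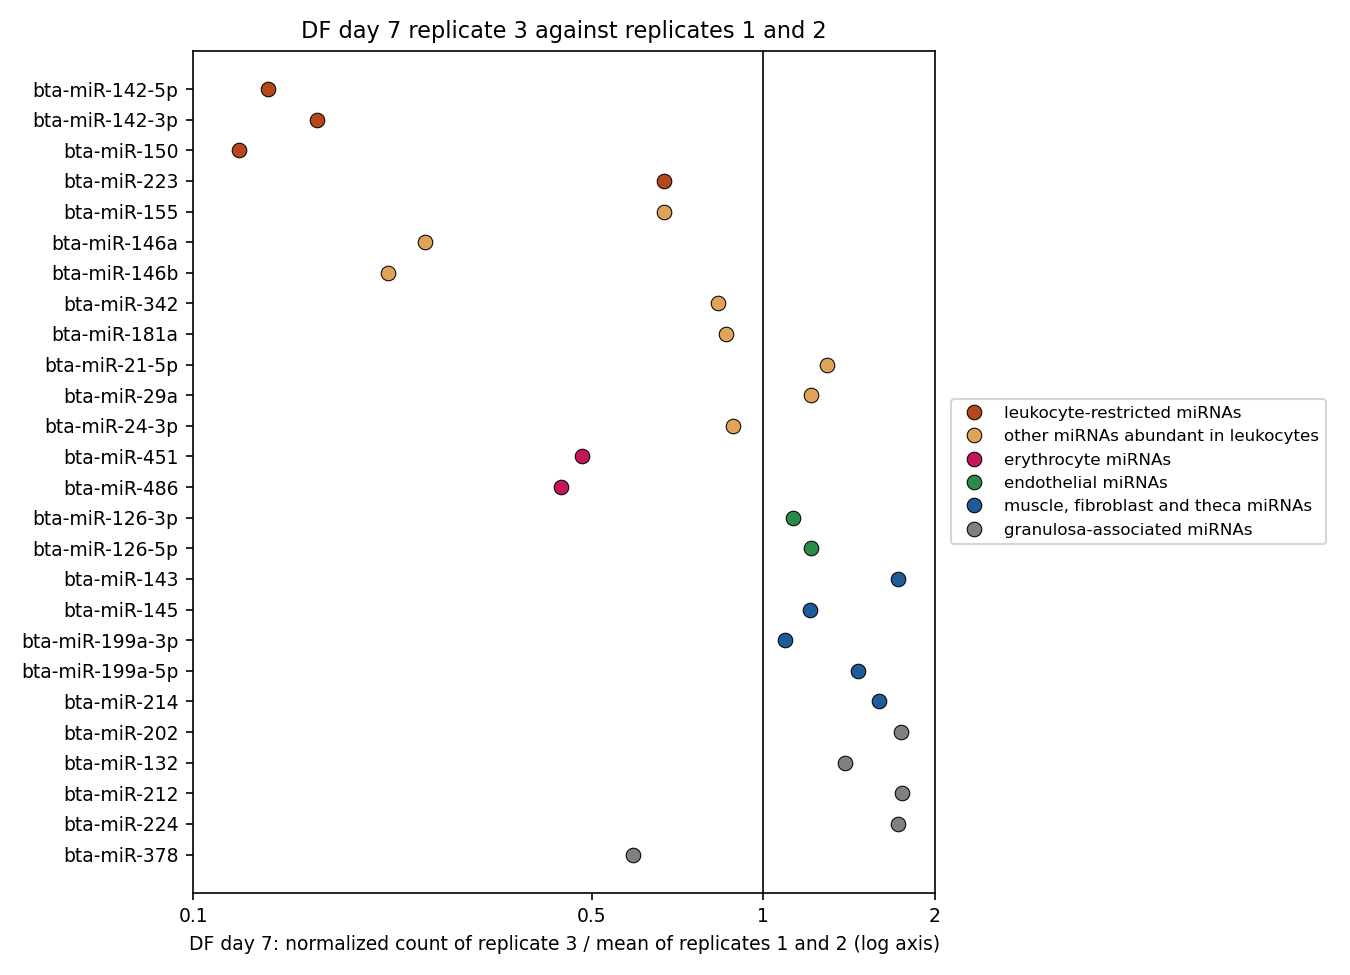
Normalized count in DF replicate 3 of day 7 divided by the mean of DF replicates 1 and 2 (x axis, logarithmic) for the miRNAs of each list (y axis), coloured by list. The lowest ratios, 0.120 to 0.165, are those of bta-miR-150, bta-miR-142-5p and bta-miR-142-3p, followed by bta-miR-146b and bta-miR-146a, and bta-miR-144 with 0 reads in replicate 3 and bta-miR-383 with none in DF are not drawn.

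Other miRNAs that are abundant in leukocytes but also made by many other cells were examined as a list of 8, and all 8 were detected in every group. In DF, 7 of the 8 rose from day 3 to day 7, where 24.4% of all miRNAs did, with a median log2 fold change of 3.28 over the 8 against 0.05 over all miRNAs tested. The largest changes were those of bta-miR-155, a miRNA induced by lymphocyte and macrophage activation, with 7.23 (SE 0.34, adjusted p = 9.12e-10, edgeR), and of bta-miR-21-5p with 5.62 (SE 0.22, adjusted p = 2.47e-10, edgeR). The exception was bta-miR-342, at 0.26 (SE 0.23, adjusted p = 0.393, edgeR), which had 261 ± 12.2 and 316 ± 72.4 normalized counts in DF at day 3 and day 7. At day 7 the same 7 miRNAs were lower in SF than in DF, where 18.3% of all miRNAs were, and the median log2 fold change was -2.18 over the 8 against -0.05 over all. At day 3, bta-miR-155 and bta-miR-21-5p were higher in SF, by 1.96 and 1.71 on the log2 scale, as were 3.88% of all miRNAs tested. Between the days in SF, bta-miR-155 rose by 1.89 (SE 0.37, adjusted p = 0.0377, edgeR) and the other 7 were not called. Of all miRNAs tested, 0.593% were called there.

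Summed levels of the 8 and of the 4 spread differently. In DF at day 7 the sum of the 8 ranged from 52295 to 56441 normalized counts, and that of the 4 from 803 to 8856. The sum of the 8 was carried by bta-miR-21-5p, with a mean of 37628 ± 6897 (SD, n = 3), while bta-miR-146a and bta-miR-146b in the same list differed 5.43 and 6.41 times between the highest and the lowest of these libraries. In the other groups the sums of the 4 ranged from 110 to 226 in SF and from 118 to 166 in DF at day 3, and from 189 to 723 in SF at day 7.

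Lists for the other cell types that the fluid or the follicle wall could add were examined in the same way, and their part in the differences above was not tested. Of 3 erythrocyte miRNAs, none was called between the days in DF, where 24.4% of all miRNAs tested were called higher and 15.8% lower. The log2 fold changes were 0.84 for bta-miR-451 (adjusted p = 0.0569, edgeR) and 0.65 for bta-miR-486 (adjusted p = 0.126, edgeR). Both were lower in SF than in DF at day 7, where 18.3% of all miRNAs tested were, with log2 fold changes of -1.76 and -1.56. No read of bta-miR-144 was counted in SF at that day. Their summed level ranged from 323 to 1684 in SF and from 755 to 1114 in DF at day 3, and from 449 to 528 in SF and from 829 to 2381 in DF at day 7, so that DF overlapped between the days. SF replicate 1 of day 3 had the highest erythrocyte sum of that day and also the highest bta-miR-142-5p count, whereas bta-miR-150 was highest in SF replicate 3, which had the lowest erythrocyte sum.

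Of the 2 endothelial strands, bta-miR-126-3p rose in DF between the days, where 24.4% of all miRNAs tested were called higher. Its log2 fold change was 1.05 (SE 0.29, adjusted p = 0.0100, edgeR), and bta-miR-126-5p did not pass the test. Neither differed between SF and DF in a test at either day. Their sum ranged from 105 to 134 and from 63.1 to 104 in SF and DF at day 3, and from 93.2 to 226 and from 133 to 164 at day 7, and SF replicate 2 of day 7 was the highest library. All 5 miRNAs of the smooth muscle, fibroblast and theca list rose in DF between the days, where 24.4% of all miRNAs did, and their median log2 fold change was 2.48 against 0.05 over all. At day 7, 4 of the 5 were lower in SF than in DF, where 18.3% of all miRNAs were, with a median of -2.07 against -0.05. Their sum was between 4220 and 5515 in SF and between 2510 and 4301 in DF at day 3, and between 3304 and 5462 in SF and between 8741 and 16997 in DF at day 7.

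The 6 miRNAs tied to granulosa cells were examined in the same way. They cannot check the label of the samples, since no library of another cell type was there to compare. All 6 were detected in SF and DF at day 3 and in SF at day 7, and 5 in DF at day 7, where bta-miR-383 had no read. Their sum ranged from 3432 to 3928 and from 4191 to 4600 in SF and DF at day 3, and from 3415 to 3817 and from 2077 to 2471 at day 7. In DF, bta-miR-202 fell by 2.28 and bta-miR-224 fell by 3.48 on the log2 scale between the days, where 15.8% of all miRNAs tested were called lower. The cAMP-responsive bta-miR-132 rose by 2.68, where 24.4% were called higher, and the other 3 did not pass the test. At day 7, bta-miR-202 and bta-miR-224 were higher in SF than in DF, by 1.81 and 3.55. So was bta-miR-383, at a fitted 4.28 with no read in DF. In this comparison 117 of the 350 miRNAs tested were called in either direction, and the other 3 of the list were not.

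**Figure D4:**
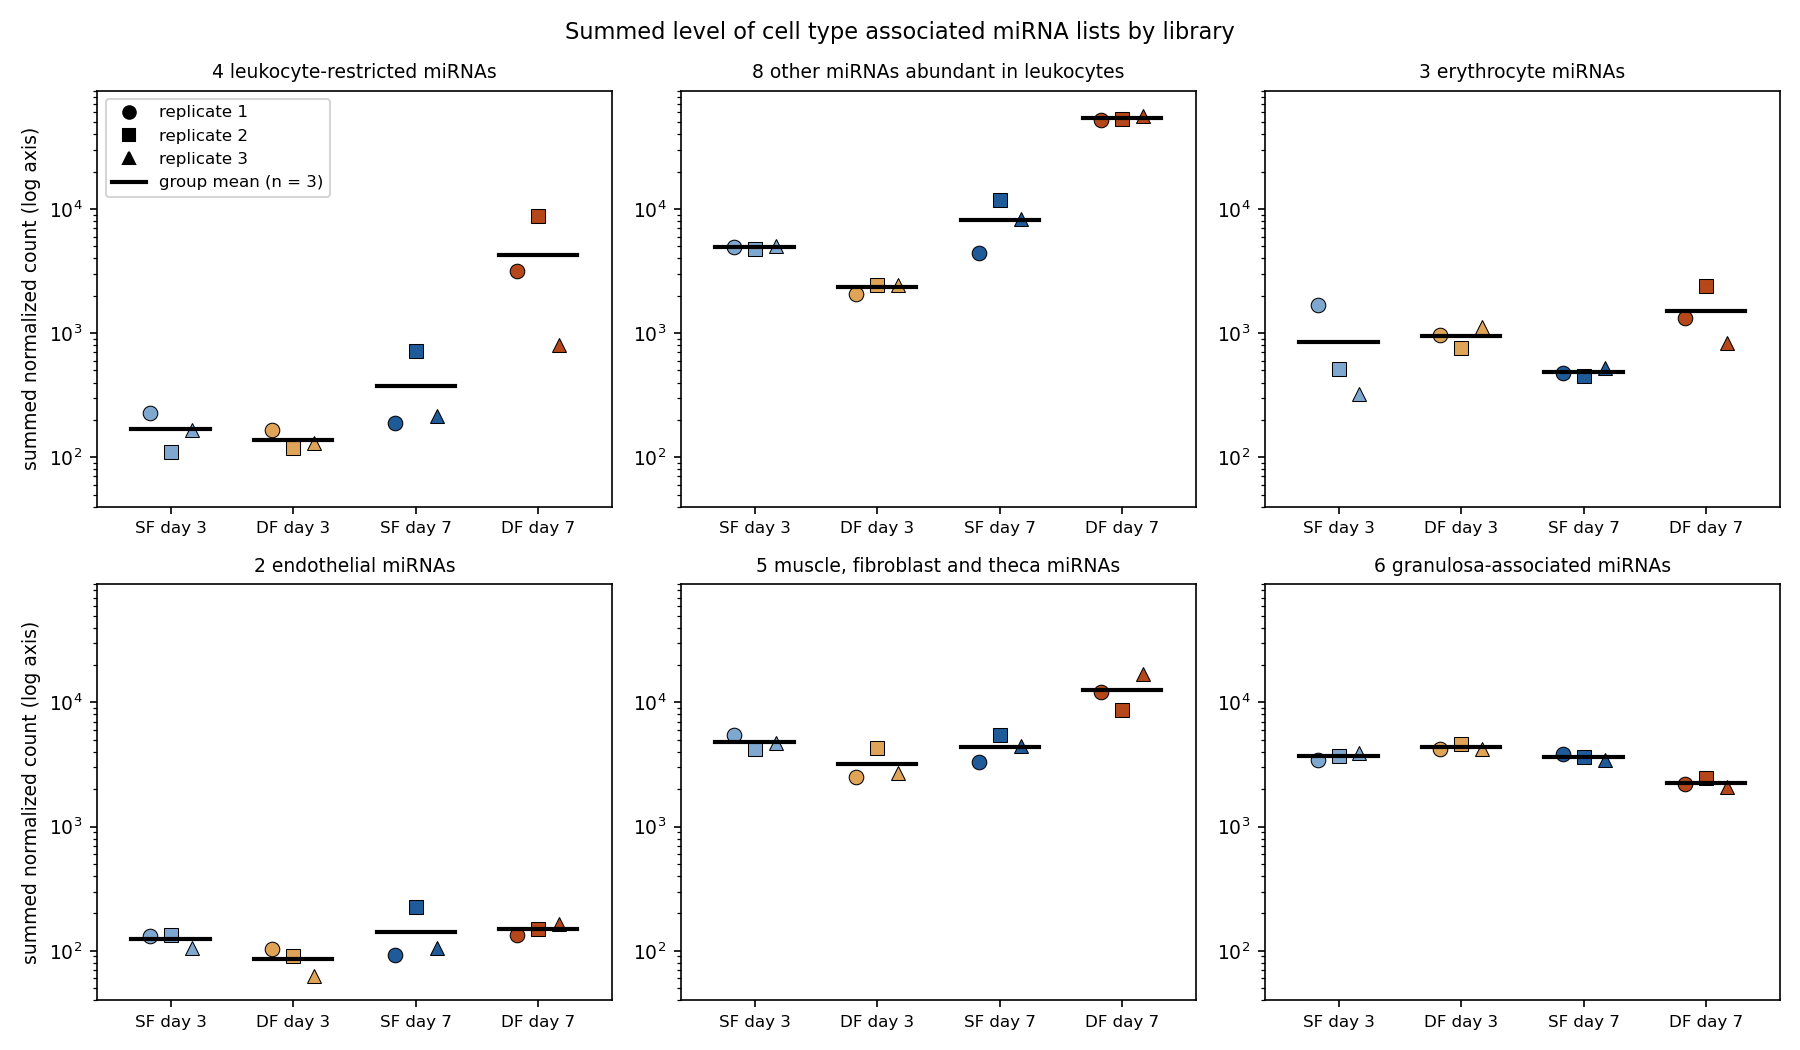
Summed normalized counts (y axis, logarithmic and alike in all panels) of the 6 lists of miRNAs in the 12 libraries by group (x axis), with a symbol for each replicate and a line at the group mean. In DF at day 7 the 4 leukocyte-restricted miRNAs spread from 803 to 8856, the 8 other miRNAs abundant in leukocytes from 52295 to 56441 and the 3 erythrocyte miRNAs from 829 to 2381.

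The miRNAs whose pattern came nearest to each of the 4 were sought among 186 with a mean of at least 10 raw reads, by the root mean square difference of centred log2 counts over the 12 libraries. The nearest to bta-miR-142-5p was bta-miR-150, at 0.46 log2 units, and the reverse held too. Next to bta-miR-142-5p came bta-miR-193b at 0.62, bta-miR-23a at 0.64 and bta-miR-146b at 0.69, against a median of 2.01 over all miRNAs compared. The same 3 followed for bta-miR-150, with bta-miR-146b at 0.72, bta-miR-23a at 0.74 and bta-miR-193b at 0.75. In DF, bta-miR-193b had 20.8 normalized counts at day 3 and 685 at day 7, and bta-miR-23a 33.4 and 695, as group means. For the few reads of bta-miR-142-3p and bta-miR-223, the constant of 1 added before the logarithm flattens the pattern, and the nearest were bta-miR-146a at 0.40 for the former and bta-miR-29a at 0.36 for the latter.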

How the data were processed

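The 12 libraries hold small RNA of granulosa cells. Adapters were removed by the authors with cutadapt, and miRDeep2 was used to count reads aligned to UMD 3.1 on miRBase 20 entries. The deposited values are raw read counts per mature miRNA and precursor, not normalized. Whether a read was allowed to overhang the listed mature sequence is not given in the sources used here.

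Where a mature name had several entries, the one with the most reads over all libraries was kept. A comparison took the 6 libraries of its groups and every miRNA detected in either group, in R 4.3.3 with edgeR 4.0.16: median-of-ratios (RLE) factors, the two-sided quasi-likelihood F test, a prior count of 0.125 and Benjamini-Hochberg adjustment over all miRNAs tested. The interaction used all 12 libraries. The standard error is the log2 fold change divided by the square root of F. The alternatives were DESeq2 1.42.0, TMM, library size alone, 2 other filters, all 12 libraries in one fit, counts summed over precursors, a replicate block, and each library left out. The procedure was tested on simulated data.

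The members and lists were chosen with earlier results of these data known. Named were the 4 miRNAs, all miRNAs of 5 marker lists (8 abundant in leukocytes, 3 erythrocyte, 2 endothelial, 5 smooth muscle, fibroblast and theca, 6 granulosa) and the nearest in pattern.

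Replicate numbers come from the labels, which tie them to no animal. Over 186 miRNAs, deviations from the group means correlated between same-numbered SF and DF libraries by 0.13, 0.16 and 0.18 at day 7. At day 3 the values were -0.14, -0.09 and -0.03. Between differently numbered SF and DF libraries of day 7 the values ran from -0.14 to 0.02. Among libraries of the same class on different days, and so from different heifers, the highest value was 0.13. It belonged to DF replicate 1 of day 7 and DF replicate 2 of day 3. Whether the numbers pair libraries is not known. The main fits were unpaired, with the replicate block as an alternative. The days came from different heifers.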

Additional observations from a re-analysis of the deposited data

Results flagged for a closer look

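SF was lower relative to DF at day 7 than at day 3 for bta-miR-142-5p, with an interaction of -3.79 on the log2 scale, and for bta-miR-150, with -3.84, in edgeR's test of the interaction itself. At day 3 the log2 fold changes of SF against DF were 0.28 and 0.01, and at day 7 they were -3.40 and -3.74. Each SF library of day 7 was below each DF library of that day for both miRNAs.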

How the results depend on the processing

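In DF between the days, at day 7 and in the interaction, bta-miR-142-5p and bta-miR-150 kept their direction and their calls under every alternative run. The strand bta-miR-142-3p and bta-miR-223 gave no value with at least 10 reads in at least 3 libraries, which left 2 of the 4 called in DF, and DESeq2 gave no adjusted p for bta-miR-142-3p at day 7 or for bta-miR-223 at day 3 and in SF. Without a filter the day 7 call of bta-miR-142-3p was lost at -3.01, and its values ran from -4.90 to -2.51 with 1 library left out.

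At day 3 the log2 fold change of bta-miR-150 changed sign with DESeq2 (-0.011), TMM (-0.022), library size alone (-0.037) and the replicate block (-0.050), and ran from -0.40 to 0.26 with 1 library left out, negative without SF replicate 3 or DF replicate 2, while that of bta-miR-142-5p ran from -0.10, without SF replicate 1, to 0.44. Of all miRNAs at day 3, 19 were called, 11 with DESeq2, 12 with the filter of 10 reads, 8 with all 12 libraries in one fit and 10 to 21 with 1 library left out. In DF between the days 145 were called, and 92 with the filter of 10 reads.

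In SF between the days 2 were called, with 37 at an unadjusted p under 0.05, against 5 with DESeq2, 10 without a filter, 0 with the filter of 10 reads, 1 with all 12 libraries in one fit, 7 with the replicate block and 0 to 20 with 1 library left out. Without a filter 1 of the leukocyte miRNAs was called there, bta-miR-142-5p at 1.22, and with 1 library left out 0 to 2 were called, with values from 0.24 to 1.55 for bta-miR-142-5p and from 0.23 to 1.47 for bta-miR-150. The replicate block changed no call of the 4 miRNAs in any comparison. The cause of these changes was not tested. Depth limits bta-miR-142-3p and bta-miR-223, with at most 6 reads in a library.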
